A study of Homo sapiens with 24 samples.

Results

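NCI-H660 is a cell line of neuroendocrine prostate cancer, and the data described here are its change in gene expression after 24 hours with 10 µM I-BET762 (GSK525762A), an inhibitor of the BET bromodomain proteins. The members are the arrays labelled NCIH660 with a dose of 10 µM or vehicle, 4 of the 24 arrays of the series, and on them every non-control probe set whose mean signal reached 100 in either group, 28251 of 54613. Those probe sets hold 12234 of the 19775 genes that a probe set with 1 gene symbol represents. The vehicle group received DMSO and the treated group 10 µM I-BET762 in addition, each for 24 hours with 2 independent biological replicates. The spread behind the p-values was estimated over all 12 groups of the 4 cell lines, with few cultures in each. The series also holds 2 NCI-H660 arrays at 0.5 µM and the same 3 groups for arrays labelled LNCAP, VCAP and PC3, all on Affymetrix U133 Plus 2.0 arrays. One established line stands for the disease here, it carries the TMPRSS2-ERG fusion per the study's text, and no second inhibitor or inactive compound was on the arrays.

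BET proteins bind acetylated lysines of histone tails and bring P-TEFb, the kinase that releases paused RNA polymerase II, to promoters and enhancers. I-BET762 fills the pocket that holds the acetylated lysine, and the proteins leave chromatin. Neuroendocrine prostate cancer lacks most of the androgen-driven luminal programme and expresses transcription factors and secretory granule proteins of neuroendocrine cells instead.

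The marker genes went with the label. All 9 measured neuroendocrine markers were detected, and their summed signal was 28977 to 29072 on the vehicle arrays and 18720 to 19424 at 10 µM. INSM1, a zinc finger factor of neuroendocrine cells, changed most, with 7256 and 8165 with vehicle and 1491 and 1715 at 10 µM. In the model of all arrays none of the 9 passed by limma, with adjusted p from 0.183 for ENO2 to 0.973 for SCG3. The log2 changes of SYP and SCG3 were positive and those of the other markers negative. INSM1 carried much of the lower sum, so the sum does not show a fall of each marker. None of 5 measured luminal prostate markers was detected (summed signals 99.8 to 165 with vehicle and 80.6 to 171 at 10 µM), and KLK3, which encodes prostate-specific antigen, was 23.8 and 7.63 with vehicle. All 4 epithelial markers were detected, with sums of 38096 to 40360 and 39279 to 40558. Of the markers of other cells, 0 of 4 leukocyte, 1 of 4 endothelial and 2 of 6 fibroblast genes were detected; the fibroblast sum was 1533 to 1592 with vehicle and 455 to 558 at 10 µM, and the collagen gene COL1A2 fell from 1126 and 1209 to 188 and 199 (log2 change -2.59, adjusted p = 0.0128). COL1A1 did not pass (log2 change -0.29, adjusted p = 0.517), and COL3A1, DCN, LUM and PDGFRB were not detected. The arrays are of cultures of 1 cell line, and the fibroblast list is no measure of a second cell type here. Whether fewer cells of the line or less RNA per cell carried COL1A2 cannot be told apart on such arrays. The part of these genes in other results was not tested.

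Each array was scaled by the authors to a trimmed mean of 500, and the number of arrays, not a read depth, limits the precision. The median signal was 100.3 and 95.9 with vehicle and 86.1 and 87.1 at 10 µM, and the share of probe sets at 100 or more was 50.1% and 49.3% against 47.5% and 47.7%. The median log2 change of all probe sets was -0.08 as deposited, 0.03 after quantile normalization and 0.10 after centring each array on its median. The 3'/5' signal ratio of GAPDH, a sign of RNA integrity, was 0.87 to 0.90 on all NCI-H660 arrays.

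At 10 µM, 2359 probe sets differed from vehicle by limma's test at an adjusted p under 0.1, a fold over 2 and a mean signal of 100 in either group. Of these 803 were higher (1.47% of the probe sets tested) and 1556 lower (2.85%), so that 34% of the calls were higher. Quantile normalization gave 1122 higher and 1319 lower (46% higher) and median centring 1338 and 1102 (54.8% higher), so the preponderance of lower calls depends on the scaling. By gene, 395 were higher and 727 lower. Without a fold minimum, 2073 of the 12234 detected genes passed as higher (16.9%) and 2060 as lower (16.8%), with a median log2 change of -0.02, and these shares are the background for the gene groups below. They were 23.8% and 9.69% after median centring, 18.7% and 16.4% after quantile normalization, 10.7% and 14.8% with the 6 NCI-H660 arrays fitted alone, and 19.6% and 21.5% on log2(signal + 32), a transform that damps noise at background and was chosen after seeing the data. List counts under those settings are to be read against these shares.

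**Figure D1:**
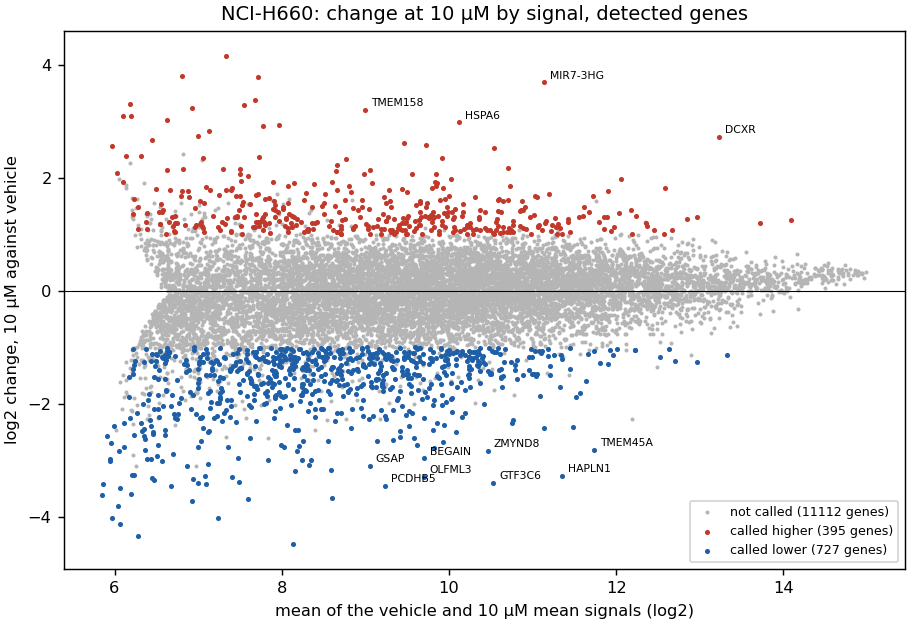
Log2 change at 10 µM against vehicle (vertical axis) by the log2 of the mean of both group mean signals (horizontal axis) for the 12234 detected genes of NCI-H660. Red points are the 395 genes called higher, blue points the 727 called lower and grey points all others; the genes with the largest changes that were measured in both groups are named, and called genes lie at all levels of signal.

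The largest rises among genes measured in both groups came from a noncoding transcript, stress proteins, signalling proteins and histones. MIR7-3HG, the host transcript of a miR-7 precursor, had signals of 327 and 319 with vehicle and 4392 and 3976 at 10 µM and rose by 3.69 on the log2 scale (SE 0.69, adjusted p = 0.00288). TMEM158, a membrane protein induced by Ras signalling, had 90.8 and 110 with vehicle and 856 and 989 at 10 µM and rose by 3.20 on the log2 scale (SE 0.15, adjusted p = 8.5e-08). For HSPA6, an inducible HSP70 chaperone, the signals were 289 and 192 with vehicle and 2696 and 1276 at 10 µM, and it rose by 2.98 on the log2 scale (SE 0.55, adjusted p = 0.00272). The replicates of HSPA6 at 10 µM lay far apart. DCXR, a reductase of the glucuronic acid pathway, was bright throughout, with 2561 and 2507 with vehicle and 17015 and 16413 at 10 µM, and rose by 2.72 on the log2 scale (SE 0.09, adjusted p = 1.04e-08). EFNB2, a ligand of Eph receptors, had 242 and 242 with vehicle and 1479 and 1410 at 10 µM (log2 change 2.58, adjusted p = 8.5e-08). PAG1, an adaptor that restrains Src family kinases, had 426 and 453 with vehicle and 2621 and 2448 at 10 µM (log2 change 2.53, adjusted p = 3.32e-07). That the treated arrays of these genes lay above the vehicle arrays was a condition of their choice.

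The other rises of this rank were the histone genes H4C8, H2AC8 and H4C5, described below, and 3 genes of other kinds. GDPD5, a glycerophosphodiesterase, rose by 2.33 (adjusted p = 1.58e-07), from 155 and 134 to 741 and 709. STK17A, a kinase of the death-associated protein kinase family, rose by 2.17 (adjusted p = 1.45e-06), from 607 and 604 to 2892 and 2556. ADARB1, an RNA-editing adenosine deaminase, rose by 2.14 (adjusted p = 6.17e-07), from 180 and 215 to 860 and 871, and 2 of its 3 detected probe sets passed.

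The largest falls among genes measured in both groups were in cell surface and matrix genes, a transcription factor subunit and chromatin proteins. PCDHB5, a protocadherin of neuronal cell contacts, had 1178 and 1033 with vehicle and 102 and 99.1 at 10 µM and fell by 3.46 on the log2 scale (SE 0.75, adjusted p = 0.00731). GTF3C6, a subunit of the RNA polymerase III factor TFIIIC, had 2596 and 2812 with vehicle and 280 and 235 at 10 µM and fell by 3.40 on the log2 scale (SE 0.14, adjusted p = 4.62e-08). HAPLN1, which links hyaluronan to proteoglycans, had 4459 and 5037 with vehicle and 514 and 466 at 10 µM and fell by 3.28 on the log2 scale (SE 0.57, adjusted p = 0.00172). Here too, a lack of overlap between the groups was a condition of the choice, as in the genes that follow. OLFML3, a secreted olfactomedin-domain protein, fell from 1550 and 1466 to 162 and 146 (log2 change -3.29, adjusted p = 0.00967). ZMYND8, a reader of acetylated histones, fell from 2587 and 2375 to 345 and 345 (log2 change -2.84, adjusted p = 5.7e-08), and 4 of its 5 detected probe sets passed as lower. MACROH2A2, a histone variant of inactive chromatin, fell from 1878 and 1486 to 236 and 290 (log2 change -2.68, adjusted p = 8.48e-05). The others were GSAP (-3.10), an activator of gamma-secretase, BEGAIN (-2.97), a synaptic scaffold partner, TMEM45A (-2.82), a membrane protein, PLEKHA2 (-2.78), a phosphoinositide-binding adaptor, NEUROG3 (-2.74), and DNALI1 (-2.67), an axonemal dynein chain, all as log2 changes that passed.

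**Figure D2:**
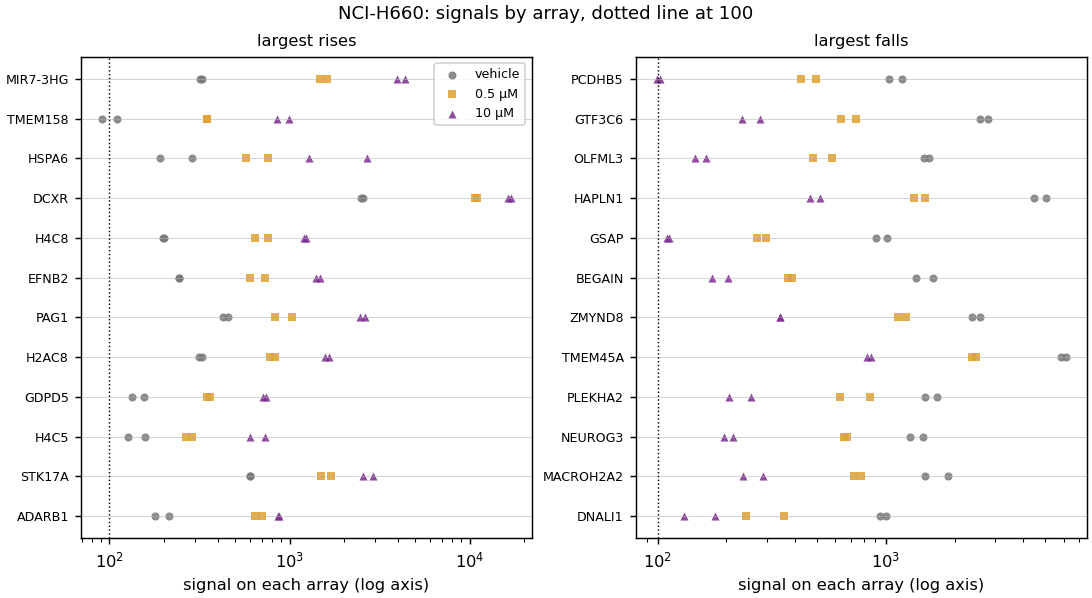
MAS5 signal (horizontal log axis) on each of the 6 NCI-H660 arrays for the 12 genes with the largest rises (left) and the 12 with the largest falls (right) among genes with a mean of at least 100 in both groups. Grey circles are vehicle, orange squares 0.5 µM and purple triangles 10 µM, 2 arrays each, and the dotted line marks a signal of 100. Genes were drawn only where both 10 µM arrays lay beyond both vehicle arrays.

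Where one group lay under a mean of 100 only a lower bound of the fold can be given, computed against 100. On the rising side KBTBD8, an adaptor of a cullin ubiquitin ligase, went from 42.3 and 77.2 to 460 and 417, at least 4.38-fold higher (adjusted p = 7.3e-06). ETV5, an ETS transcription factor, went from 30.8 and 42.1 to 377 and 370, at least 3.74-fold (adjusted p = 0.000609), though only 1 of its 3 detected probe sets passed. BAIAP3, which acts in dense-core vesicle traffic, went from 21.4 and 38 to 410 and 374, at least 3.91-fold (adjusted p = 0.0019). The remaining bounds among the 8 largest were 3.87 for KLHL29, 3.67 for UACA, 3.54 for H2BC4, 3.37 for IZUMO4 and 3.1 for SLC12A2, a sodium, potassium and chloride cotransporter. On the falling side ZNF532, a zinc finger protein, went from 741 and 696 to 63.8 and 50.1, at least 7.18-fold lower (adjusted p = 0.00065). ZHX2, a homeobox repressor, went from 681 and 702 to 76.9 and 76.8, at least 6.91-fold lower (adjusted p = 1.31e-06). SRC, the tyrosine kinase, went from 498 and 565 to 102 and 42.8, at least 5.25-fold lower (adjusted p = 0.00106). Its other detected probe set did not pass (log2 change -0.87). POU2AF1, a coactivator of octamer-binding factors, went from 568 and 589 to 71.8 and 73.3 (at least 5.78-fold lower, adjusted p = 0.0847), a call that was lost after median centring (adjusted p = 0.102). The other bounds were 5.74 for HORMAD1, a meiotic axis protein, 5.34 for FJX1, 5.23 for LRRC34 and 5.13 for FKBP8, an immunophilin that binds BCL2.

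Among BET proteins and the regulators of P-TEFb, the inhibitor of the kinase and its elongation partner rose. HEXIM1, which holds P-TEFb inactive in the 7SK particle, had 694 and 778 with vehicle, 1757 and 1419 at 0.5 µM and 2682 and 2640 at 10 µM, and rose by 1.86 on the log2 scale (SE 0.12, adjusted p = 6.69e-07) at 10 µM. The dose groups of HEXIM1 did not overlap; 2 of its 3 detected probe sets passed and the lowest change among them was -0.18. ELL2, an elongation factor of the super elongation complex, went from 16.1 and 64.5 to 198 and 232, at least 2.14-fold (adjusted p = 0.000714). SERTAD1, a transcriptional coregulator, had 362 and 419 with vehicle and 1425 and 1506 at 10 µM (log2 change 1.91, adjusted p = 7.13e-05). BRD2, a BET protein, rose by 0.61 (adjusted p = 0.00155), from 3395 and 3355 to 5191 and 5097, while BRD3 had 3334 and 3559 with vehicle and 3455 and 2974 at 10 µM (log2 change -0.10, adjusted p = 0.786). NELFCD, a subunit of the pausing complex NELF, fell by 1.38 (adjusted p = 1.78e-06), from 4306 and 3777 to 1555 and 1550. In the whole list 7 of 30 detected genes were higher (23.3%) and 1 lower (3.33%), against 16.9% and 16.8% of all detected genes, and the median log2 change was 0.07. CDK9, the kinase of P-TEFb, had 670 and 598 with vehicle and 773 and 797 at 10 µM (log2 change 0.31, adjusted p = 0.145).

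Replication-dependent histone genes rose together. These genes supply the core and linker histones that package new DNA, and most of their transcripts normally end in a stem-loop rather than a poly(A) tail, while the labels state that poly(A) RNA was extracted. Of 37 measured genes 23 were detected, and 21 of them were higher (91.3%) and 0 lower, with a median log2 change of 1.54 against -0.02 for all detected genes; by limma at an unadjusted p under 0.05 the count of lower ones was 0. The count of higher genes was 20 after quantile normalization, 21 after median centring and 17 to 19 with any 1 array left out. H4C8 had 198 and 200 with vehicle, 764 and 642 at 0.5 µM and 1202 and 1229 at 10 µM, and rose by 2.61 on the log2 scale (SE 0.14, adjusted p = 2.69e-07). H2AC8 had 326 and 314 with vehicle, 828 and 780 at 0.5 µM and 1665 and 1569 at 10 µM (log2 change 2.34, adjusted p = 7.26e-08). Both genes stepped up at each dose with no overlap between groups. H2BC5 had 1885 and 1597 with vehicle and 6665 and 6945 at 10 µM (log2 change 1.97, adjusted p = 4.84e-07), and the linker histone H1-2 2832 and 2620 with vehicle and 9692 and 9399 at 10 µM (log2 change 1.81, adjusted p = 2.07e-07). H2BC4 was below 100 with vehicle, at 71.6 and 65.9, and reached 352 and 356 (at least 3.54-fold, adjusted p = 6.17e-08). H2BC12 changed least of the genes that passed, from 9470 and 8949 to 11547 and 11651 (log2 change 0.33, adjusted p = 0.0327), lost after quantile normalization. The genes that did not pass were H2BC17 (log2 change 0.74, adjusted p = 0.281) and H4C9 (log2 change 0.90, adjusted p = 0.287). Copies of one histone class are near-identical, so probe sets can take signal from neighbours and the genes are not independent counts. Whether the share of polyadenylated histone transcripts moved was not tested.

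**Figure D3:**
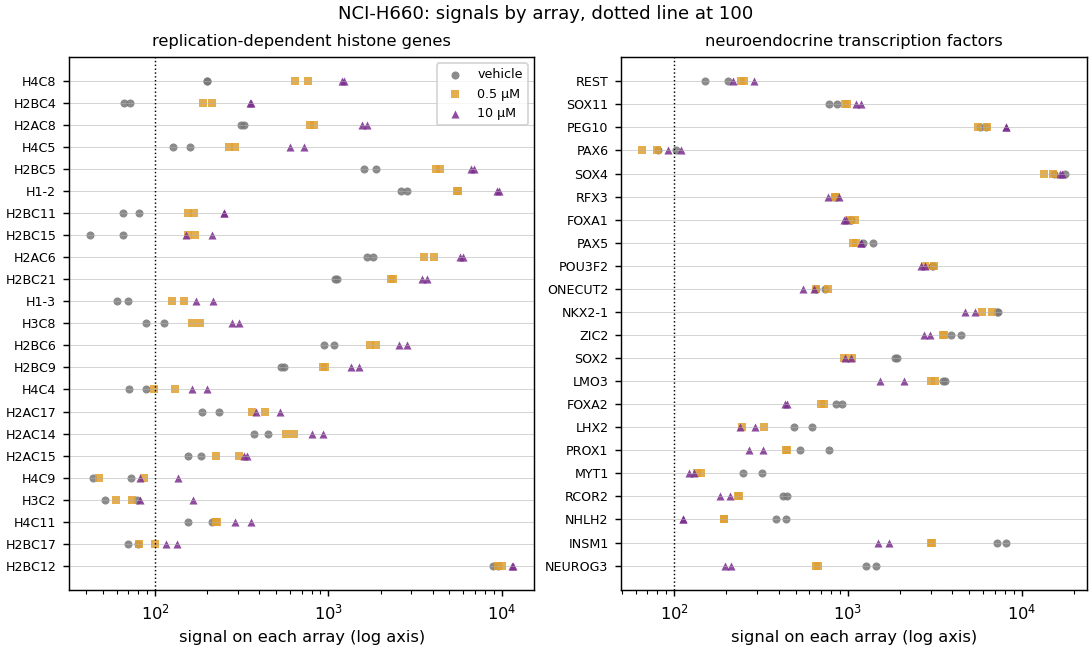
MAS5 signal (horizontal log axis) on each of the 6 NCI-H660 arrays for the 23 detected replication-dependent histone genes (left) and the 22 detected neuroendocrine transcription factors (right), each ordered by log2 change. Grey circles are vehicle, orange squares 0.5 µM and purple triangles 10 µM; 21 histone genes passed as higher and 0 as lower, and of the factors 0 passed as higher and 5 as lower, with NEUROG3 and INSM1 at the bottom.

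Because these genes moved together, their promoters were read from RefSeq (build GRCh38.p14), as the 250 bases before and 50 after each annotated start. All 23 detected histone genes were matched, 22 on chromosome 6 and 1 on chromosome 1. The windows of H2AC6 and H2BC4, which face away from each other, share 255 bases, and those of H2BC15 and H2AC15 and of H2BC17 and H2AC17 also overlap. Searched on both strands, the octamer ATTTGCAT was in 11 of 23 windows against 1.8% of all 27305 promoter windows, TATAAA in 15 against 12%, and CCAAT in 19 against 35.7%. Genes with and without the octamer both rose, 10 of 11 and 11 of 12. The pair H2BC4 and H2BC21 is shown for these motifs on different chromosomes, H4C8 as the largest rise with none of the 3 motifs in its window, and HSPA6, the largest rise among chaperone genes, for the heat shock motif GAANNTTC. Capitals mark those motifs on either strand, and each sequence runs along the gene's own strand. The positions are chr6:26123877-26124176 (minus strand), chr1:149886633-149886932 (minus strand), chr6:26285485-26285784 (minus strand) and chr1:161524290-161524589 (plus strand).
H2BC4: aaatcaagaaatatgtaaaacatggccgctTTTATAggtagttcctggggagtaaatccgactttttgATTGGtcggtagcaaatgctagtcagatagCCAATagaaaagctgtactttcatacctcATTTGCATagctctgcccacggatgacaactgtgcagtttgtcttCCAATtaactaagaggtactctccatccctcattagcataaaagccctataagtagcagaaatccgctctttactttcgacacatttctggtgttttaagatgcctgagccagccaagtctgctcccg
H2BC21: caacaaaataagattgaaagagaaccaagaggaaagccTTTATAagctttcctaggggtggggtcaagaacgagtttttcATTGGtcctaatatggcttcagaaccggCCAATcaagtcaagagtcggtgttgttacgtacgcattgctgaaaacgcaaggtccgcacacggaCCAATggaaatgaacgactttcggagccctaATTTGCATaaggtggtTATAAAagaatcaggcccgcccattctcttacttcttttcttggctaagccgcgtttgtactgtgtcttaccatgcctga
H4C8: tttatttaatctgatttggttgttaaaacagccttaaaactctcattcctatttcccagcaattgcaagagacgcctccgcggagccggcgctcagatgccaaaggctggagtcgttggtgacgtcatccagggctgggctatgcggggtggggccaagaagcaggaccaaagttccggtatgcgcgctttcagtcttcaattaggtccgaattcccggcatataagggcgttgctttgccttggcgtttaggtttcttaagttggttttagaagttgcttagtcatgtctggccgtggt
HSPA6: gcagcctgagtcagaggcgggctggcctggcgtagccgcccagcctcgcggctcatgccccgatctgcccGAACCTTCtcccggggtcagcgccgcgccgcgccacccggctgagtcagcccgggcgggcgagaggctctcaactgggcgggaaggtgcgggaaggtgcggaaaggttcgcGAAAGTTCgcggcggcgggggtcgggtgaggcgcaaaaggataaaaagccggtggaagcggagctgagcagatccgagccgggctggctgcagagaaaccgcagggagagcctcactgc
The matches describe letters in these windows and were not tested as binding sites.

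How many neuroendocrine transcription factors passed as lower depended on whether the other lines entered the fit and on the transform of the signals. In the model of all 24 arrays 5 of 22 detected factors were lower (22.7%, against 16.8% of all detected genes) and 0 higher, 4 and 1 after median centring and 5 and 1 after quantile normalization, with a median log2 change of -0.54; at an unadjusted p under 0.05 limma gave 7 lower and 0 higher. NEUROG3, a factor of endocrine cell fate, had 1280 and 1456 with vehicle, 658 and 677 at 0.5 µM and 196 and 214 at 10 µM, and fell by 2.74 on the log2 scale (SE 0.73, adjusted p = 0.0248). NHLH2, a basic helix-loop-helix factor of neuroendocrine neurons, had 384 and 440 with vehicle and 112 and 113 at 10 µM (log2 change -1.87, adjusted p = 0.00516). MYT1, a zinc finger factor of neural progenitors, had 320 and 248 with vehicle and 131 and 122 at 10 µM (log2 change -1.15, adjusted p = 0.0102). LHX2, a LIM homeobox factor, had 487 and 622 with vehicle and 292 and 241 at 10 µM (log2 change -1.05, adjusted p = 0.0386), and lost its call without the vehicle replicate 2 or the 10 µM replicate 2 array, while NEUROG3 lost its own without vehicle replicate 2 or 10 µM replicate 1. Only 1 of 3 detected probe sets of MYT1 and 1 of 2 of LHX2 passed. ZIC2, a zinc finger factor, had 3927 and 4469 with vehicle and 2757 and 2959 at 10 µM (log2 change -0.55, adjusted p = 0.0689), lost after median centring. INSM1, named above, had 7256 and 8165 with vehicle, 3021 and 3032 at 0.5 µM and 1491 and 1715 at 10 µM, and its log2 change of -2.27 did not pass (SE 1.04, adjusted p = 0.2). That error is shared with the other lines, where the mean vehicle signal of INSM1 was 2.49 in PC3, 18.6 under the label VCAP and 399 under LNCAP. With the 6 NCI-H660 arrays fitted alone its adjusted p was 0.0276, and on log2(signal + 32) it was 9.47e-06. Either fit passed 11 of 22 factors as lower and 0 as higher, where 14.8% (alone) and 21.5% (transform) of all detected genes passed as lower. FOXA2, a forkhead factor of this tumour type, with 856 and 929 with vehicle and 435 and 446 at 10 µM, had adjusted p values of 0.544, 0.0352 and 0.0532 in the 3 fits. SOX2, a stem cell factor, with 1913 and 1856 with vehicle and 1039 and 960 at 10 µM, had 0.594, 0.043 and 0.0981. Without the vehicle replicate 2 array 2 factors were lower, and without either 10 µM array 3.

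Genes of the neurosecretory granule moved less evenly. Of 39 detected, 3 were higher and 5 lower (7.69% and 12.8%), 3 and 3 after median centring, and 4 and 10 on log2(signal + 32), where 21.5% of all detected genes passed as lower. DDC, the decarboxylase of amine synthesis, had 4605 and 4851 with vehicle, 2114 and 2139 at 0.5 µM and 1312 and 1386 at 10 µM, and fell by 1.81 on the log2 scale (SE 0.45, adjusted p = 0.016). NTS, which encodes the peptide neurotensin, had 472 and 456 with vehicle and 146 and 148 at 10 µM (log2 change -1.66, adjusted p = 0.0511). GRP, the gastrin-releasing peptide gene, had 561 and 666 with vehicle and 178 and 139 at 10 µM, with an adjusted p of 0.152 in the model of all arrays and 0.000207 on log2(signal + 32). STX1A, a syntaxin of vesicle fusion, rose by 0.82 (adjusted p = 0.00711), from 512 and 466 to 934 and 793. The classical markers did not pass. CHGA, chromogranin A, had 2592 and 2545 with vehicle and 1822 and 1692 at 10 µM (log2 change -0.55, adjusted p = 0.729), SYP, synaptophysin, had 234 and 155 with vehicle and 230 and 275 at 10 µM (log2 change 0.40, adjusted p = 0.791), and SCG3, a granin, had 1942 and 2129 with vehicle and 2166 and 2161 at 10 µM (log2 change 0.09, adjusted p = 0.973). NCAM1, a neural adhesion molecule, had 3251 and 3400 with vehicle and 2761 and 2799 at 10 µM (log2 change -0.26, adjusted p = 0.522). Of 37 neuronal adhesion, cytoskeleton and channel genes 1 was higher and 2 lower, 2 and 1 after median centring, 1 and 1 with any 1 array left out, and 5 and 7 on log2(signal + 32), against 19.6% and 21.5% of all detected genes there. KIF5C, a neuronal kinesin, rose by 0.87 (adjusted p = 0.000853), from 1306 and 1227 to 2148 and 2503, and GAP43, a growth cone protein, fell by 1.29 (adjusted p = 0.0735), from 521 and 446 to 182 and 214, the latter lost after median centring (adjusted p = 0.113). Without the vehicle replicate 1, vehicle replicate 2 or 10 µM replicate 2 array, 3 granule genes were lower, and without 10 µM replicate 2 1 was higher.

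MYC, the transcription factor that drives growth genes, rose. Its signals were 794 and 759 with vehicle, 887 and 840 at 0.5 µM and 1359 and 1219 at 10 µM, the 10 µM arrays above all others, and it rose by 0.73 on the log2 scale (SE 0.10, adjusted p = 0.000286). Its partner MAX had 3010 and 3126 with vehicle and 4200 and 4129 at 10 µM (log2 change 0.44, adjusted p = 0.00751), and the antagonists MXD1 and MNT had log2 changes of 0.59 (adjusted p = 0.0601) and -0.56 (adjusted p = 0.022). Of 3 detected probe sets of MXD1 2 passed as higher, and the 3 changes ran from 0.59 to 2.49. MYCL, the paralogue of lung and neuroendocrine tumours, had 1251 and 1347 with vehicle and 995 and 943 at 10 µM (log2 change -0.42, adjusted p = 0.038), and the probe set used for MYCN lay under 100 on all 4 arrays, while 1 of its 10 probe sets was detected and did not pass (log2 change -0.12). After median centring MYCL (0.358) and MNT (0.142) had adjusted p values over the threshold. Of 54 detected c-Myc target genes 9 were higher and 2 lower (16.7% and 3.70%), with a median log2 change of 0.13, 18 and 0 after median centring, 10 and 5 after quantile normalization, 3 and 1 with the NCI-H660 arrays fitted alone, and 0 lower without vehicle replicate 2 or 10 µM replicate 2. PPAT, the first enzyme of purine synthesis, had 1169 and 1112 with vehicle and 2451 and 2221 at 10 µM (log2 change 1.03, adjusted p = 8.33e-05), and 2 of its 3 probe sets passed. IMPDH2, of guanine nucleotide synthesis, had 6527 and 6191 with vehicle and 11740 and 11805 at 10 µM (log2 change 0.89, adjusted p = 0.000229). ODC1, the first enzyme of polyamine synthesis, had 4111 and 4225 with vehicle and 7145 and 6924 at 10 µM (log2 change 0.76, adjusted p = 0.00107).

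Ribosome biogenesis genes split, with 14 of 72 higher and 5 lower (19.4% and 6.94%), 21 and 1 after median centring, 9 higher and 3 lower without the vehicle replicate 1 or the 10 µM replicate 2 array, and 1 lower without vehicle replicate 2. UTP6, of the small subunit processome, had 1130 and 1174 with vehicle and 2528 and 2533 at 10 µM (log2 change 1.14, adjusted p = 0.000612), and TAF1D, of the RNA polymerase I selectivity factor, had 936 and 925 with vehicle and 2110 and 1806 at 10 µM (log2 change 1.07, adjusted p = 7.08e-05). BRIX1, a large subunit assembly factor, had 655 and 643 with vehicle and 438 and 354 at 10 µM (log2 change -0.72, adjusted p = 0.033), lost after median centring. Among cytosolic ribosomal proteins 8 of 33 were higher and 0 lower, a count that was 2 after quantile normalization, 25 after median centring and 1, 1 and 2 without the vehicle replicate 2, 10 µM replicate 1 or 10 µM replicate 2 array. RPL12 had 15360 and 13271 with vehicle and 22779 and 22141 at 10 µM (log2 change 0.65, adjusted p = 0.00571). RPL7 passed by a dim probe set (225 and 86.2 against 532 and 496), and the other 2 probe sets of RPL7 did not.

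More mitosis genes fell than rose, 19 and 1 of 67 detected. FOXM1, which activates genes of the G2 and M phases, had 1334 and 1326 with vehicle, 834 and 900 at 0.5 µM and 410 and 397 at 10 µM, and fell by 1.72 on the log2 scale (SE 0.18, adjusted p = 3.38e-05). KIF14, a kinesin of cytokinesis, had 1751 and 1814 with vehicle and 654 and 633 at 10 µM (log2 change -1.47, adjusted p = 0.000299), and its 10 µM arrays lay under all others. SPC24, a kinetochore subunit, had 841 and 833 with vehicle and 308 and 353 at 10 µM (log2 change -1.34, adjusted p = 0.00375), and ESPL1, the separase that cuts cohesin, had 3573 and 3295 with vehicle and 1667 and 1790 at 10 µM (log2 change -0.99, adjusted p = 6.22e-05). These shares were 28.4% and 1.49%, the counts 9 lower and 5 higher after median centring, and the median log2 change -0.24. Other members that passed as lower included BUB1B (-0.76) of the spindle checkpoint, AURKA (-0.54), a spindle kinase, and CCNB1 (-0.49), the mitotic cyclin, of which AURKA and CCNB1 were lost after median centring. CENPN (0.71), a centromere protein, was the gene that rose. CDK1, the mitotic kinase, had 17826 and 16929 with vehicle and 19958 and 19839 at 10 µM (log2 change 0.20, adjusted p = 0.485).

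DNA replication genes had no common direction, with 7 of 57 higher and 9 lower (12.3% and 15.8%), a split that turned to 10 and 1 after median centring and fell to 3 or 4 higher and 3 to 6 lower with any 1 array left out. ORC4, of the origin recognition complex, had 3452 and 3251 with vehicle and 5637 and 5686 at 10 µM (log2 change 0.76, adjusted p = 0.00131). GMNN, geminin, which blocks relicensing, had 8536 and 8472 with vehicle and 12868 and 12196 at 10 µM (log2 change 0.56, adjusted p = 0.0034). TOPBP1, a replication checkpoint scaffold, had 3605 and 3859 with vehicle and 2303 and 2217 at 10 µM (log2 change -0.72, adjusted p = 0.00105). Of cyclins, CDKs and their inhibitors 4 of 29 were higher and 5 lower (13.8% and 17.2%, against 16.9% and 16.8% of all detected genes), 7 and 4 after median centring. E2F8, a repressor of the E2F family, had 915 and 1143 with vehicle and 552 and 474 at 10 µM (log2 change -1.0, adjusted p = 0.00289), and CDKN2D, an inhibitor of CDK4 and CDK6, had 3274 and 3099 with vehicle and 5309 and 5264 at 10 µM (log2 change 0.73, adjusted p = 0.00142). Of homologous recombination and repair genes 5 of 39 were higher and 8 lower (6 and 4 after median centring, 4 lower without the vehicle replicate 1 array, 5 lower without 10 µM replicate 2, and 3 higher without vehicle replicate 2 or 10 µM replicate 1). FANCE, of the Fanconi anaemia core complex, had 379 and 342 with vehicle and 823 and 882 at 10 µM (log2 change 1.24, adjusted p = 0.00356).

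Several ligands, receptors and brakes of apoptosis fell. In the BCL2 family and apoptosis regulators 10 of 30 detected genes were lower and 4 higher (33.3% and 13.3%), 10 and 6 after median centring. TNFSF10, which encodes the death ligand TRAIL, went from 260 and 287 to 44.4 and 76, at least 2.73-fold lower (adjusted p = 0.00508). FAS, a death receptor, had 311 and 311 with vehicle and 107 and 116 at 10 µM (log2 change -1.48, adjusted p = 0.00025). CFLAR, the inhibitor of caspase-8 known as c-FLIP, had 590 and 574 with vehicle, 323 and 378 at 0.5 µM and 175 and 167 at 10 µM, and fell by 1.77 on the log2 scale (SE 0.23, adjusted p = 0.000193). BCL2L1, which encodes BCL-XL, had 1901 and 879 with vehicle and 625 and 615 at 10 µM (log2 change -1.06, adjusted p = 0.029), and BOK, a pro-apoptotic member of the family, had 1094 and 1117 with vehicle and 502 and 415 at 10 µM (log2 change -1.28, adjusted p = 5.73e-05). On the rising side BCL2L11, the gene of BIM, had 1719 and 1607 with vehicle and 2307 and 2519 at 10 µM (log2 change 0.54, adjusted p = 0.004), and CASP9, the initiator caspase of the mitochondrial pathway, had 963 and 830 with vehicle and 1588 and 1543 at 10 µM (log2 change 0.81, adjusted p = 0.00485). BCL2 itself had 2050 and 2181 with vehicle and 802 and 811 at 10 µM (log2 change -1.39, adjusted p = 0.264), with an adjusted p of 0.029 where the NCI-H660 arrays were fitted alone. Genes known as p53 targets were higher for 9 of 24 and lower for 2 (37.5% and 8.33%), with 5 higher without the 10 µM replicate 1 array. CDKN1A, which encodes the CDK inhibitor p21, had 2940 and 3111 with vehicle and 4319 and 4332 at 10 µM (log2 change 0.52, adjusted p = 0.00732), PLK2, a stress kinase, went from 80.7 and 76.8 to 193 and 175 (at least 1.84-fold, adjusted p = 0.000151), and MDM2, the ubiquitin ligase of p53, had 1154 and 1003 with vehicle and 676 and 618 at 10 µM (log2 change -0.74, adjusted p = 0.0397), lost after median centring. Only 1 of 5 detected probe sets of MDM2 passed.

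Interferon response genes were mostly lower, 18 of 30 detected against 3 higher (60% and 10%), with a median log2 change of -0.65. Quantile normalization gave 16 and 3, median centring 13 and 3, and the lower count was 11 without the vehicle replicate 1 array. OAS3, a synthetase that senses double-stranded RNA, had 530 and 500 with vehicle, 259 and 307 at 0.5 µM and 140 and 151 at 10 µM, and fell by 1.83 on the log2 scale (SE 0.28, adjusted p = 0.000766). ISG20, an antiviral exonuclease, had 949 and 945 with vehicle and 266 and 178 at 10 µM (log2 change -2.12, adjusted p = 1.38e-05). CMPK2, a mitochondrial nucleotide kinase, had 428 and 438 with vehicle and 128 and 131 at 10 µM (log2 change -1.74, adjusted p = 0.000124). In each of these genes both treated arrays lay below both vehicle arrays. PARP14, an ADP-ribosyltransferase, went from 409 and 492 to 89.5 and 48.1, at least 4.49-fold lower (adjusted p = 0.00455). IFIT3, an RNA-binding interferon effector, had 312 and 328 with vehicle and 175 and 153 at 10 µM (log2 change -0.97, adjusted p = 0.0394), lost after median centring. The members that rose were IRF7, the regulator of type I interferon genes, with 1107 and 918 with vehicle and 2835 and 2518 at 10 µM (log2 change 1.41, adjusted p = 3.19e-05), HERC5, the ISG15 ligase, with 590 and 588 with vehicle and 1781 and 1635 at 10 µM (log2 change 1.54, adjusted p = 0.000125), and IFI6, with 593 and 542 with vehicle and 1082 and 1131 at 10 µM (log2 change 0.96, adjusted p = 0.00774).

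Antigen presentation genes were lower for 6 of 19 and higher for 0 (31.6% lower), 5 and 1 after median centring, and 3 lower without the vehicle replicate 2 array; limma at an unadjusted p under 0.05 gave 1 higher. PSMB8, an immunoproteasome subunit, had 2401 and 2313 with vehicle and 800 and 815 at 10 µM (log2 change -1.55, adjusted p = 0.00897), and TAPBP, tapasin, which loads peptide onto class I molecules, had 2934 and 2706 with vehicle and 1378 and 1313 at 10 µM (log2 change -1.07, adjusted p = 5.42e-05). Of NF-kB, chemokine and cytokine genes 2 of 16 detected were higher and 4 lower (12.5% and 25%, against 16.9% and 16.8% of all detected genes). NFKBIZ, a nuclear NF-kB cofactor, had 644 and 656 with vehicle and 1707 and 1573 at 10 µM (log2 change 1.33, adjusted p = 1.87e-05), NFKB1, a subunit of NF-kB, had 441 and 313 with vehicle and 199 and 203 at 10 µM (log2 change -0.89, adjusted p = 0.00156), and LIF, a cytokine, went from 152 and 102 to 9.28 and 5.45, at least 1.25-fold lower (adjusted p = 0.00247).

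Chaperone genes of the heat shock response rose or did not pass. Of 23 detected 11 were higher and 0 lower (47.8% higher), with a median log2 change of 0.32; the count was 6 after quantile normalization, 16 after median centring and 6 without the vehicle replicate 2 or the 10 µM replicate 1 array, and at an unadjusted p under 0.05 limma gave 0 lower. DNAJB1, an HSP40 cochaperone, had 9267 and 7151 with vehicle, 13312 and 11436 at 0.5 µM and 20847 and 16632 at 10 µM, and rose by 1.19 on the log2 scale (SE 0.18, adjusted p = 0.000583). DNAJB4, another HSP40 protein, had 277 and 397 with vehicle and 885 and 967 at 10 µM (log2 change 1.48, adjusted p = 0.00171), and HSPA4L, an HSP110 relative, had 1017 and 986 with vehicle and 1804 and 1824 at 10 µM (log2 change 0.86, adjusted p = 0.00855). HSP90AA1, the inducible HSP90, had 26167 and 23378 with vehicle and 31675 and 32821 at 10 µM (log2 change 0.38, adjusted p = 0.047), lost after quantile normalization. HSF1, the factor that induces such genes, had 1326 and 1274 with vehicle and 1218 and 1212 at 10 µM (log2 change -0.10, adjusted p = 0.821). The heat shock motif was in 6 of the 21 promoter windows found for this list, against 6.87% of all promoters, and 3 of those 6 genes and 8 of the other 15 rose.

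Autophagy and lysosome genes were higher for 18 of 46 and lower for 3 (39.1% and 6.52%), 21 and 1 after median centring. ASAH1, acid ceramidase of the lysosome, had 1055 and 978 with vehicle, 1740 and 1812 at 0.5 µM and 3295 and 3144 at 10 µM, and rose by 1.66 on the log2 scale (SE 0.10, adjusted p = 5.41e-07). NPC1, which exports cholesterol from lysosomes, had 830 and 775 with vehicle and 2536 and 2285 at 10 µM (log2 change 1.59, adjusted p = 1.71e-06). WIPI1, a phosphoinositide-binding protein of early autophagosomes, had 131 and 160 with vehicle and 513 and 452 at 10 µM (log2 change 1.73, adjusted p = 5.93e-06). The dose groups of these genes did not overlap. MITF, a factor that activates lysosomal genes, had 172 and 139 with vehicle and 396 and 355 at 10 µM (log2 change 1.28, adjusted p = 4.18e-05); of its relatives TFE3 had a log2 change of 0.49 (adjusted p = 0.0704) and TFEB one of -0.67 (adjusted p = 0.377). LAMP2, a lysosomal membrane protein, had 4256 and 4070 with vehicle and 8803 and 8796 at 10 µM (log2 change 1.08, adjusted p = 0.000134), and CTSZ, a lysosomal protease, had 448 and 366 with vehicle and 157 and 200 at 10 µM (log2 change -1.19, adjusted p = 0.00389). Genes of cholesterol and fatty acid synthesis were higher for 11 of 29 and lower for 3 (37.9% and 10.3%), 16 and 2 after median centring, with a median log2 change of 0.34 and 1 lower without vehicle replicate 1 or either 10 µM array. TM7SF2, a sterol reductase, had 533 and 432 with vehicle and 1733 and 1254 at 10 µM (log2 change 1.62, adjusted p = 1.43e-05), LSS, lanosterol synthase, had 1384 and 1464 with vehicle and 2723 and 3295 at 10 µM (log2 change 1.07, adjusted p = 8.35e-05), and ACACA, acetyl-CoA carboxylase, had 636 and 760 with vehicle and 1470 and 1451 at 10 µM (log2 change 1.07, adjusted p = 0.000403). The other detected probe set of ACACA did not pass (log2 change -0.01), and 1 of 3 detected probe sets of LSS did. IDI1, an isomerase of the mevalonate pathway, had 281 and 238 with vehicle and 114 and 138 at 10 µM (log2 change -1.05, adjusted p = 0.0478) by the chosen probe set, and 2 of its other probe sets passed as higher. SREBF2, the factor that controls the pathway, had 879 and 794 with vehicle and 764 and 917 at 10 µM (log2 change 0.00, adjusted p = 0.997).

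Other stress and metabolic groups were mixed. The shares higher and lower were 20.5% and 20.5% for unfolded protein response and ATF4 targets and 11.8% and 20.6% for hypoxia and glycolysis. They were 19.2% and 9.62% for oxidative phosphorylation, against 16.9% and 16.8% of all detected genes. Unfolded protein response and ATF4 target genes were higher for 8 of 39 and lower for 8, 11 and 4 after median centring (4 and 3 without the vehicle replicate 2 array, 5 and 5 without 10 µM replicate 1, and 6 and 5 without vehicle replicate 1). ATF3, a stress-induced factor, had 3356 and 3008 with vehicle and 7716 and 6804 at 10 µM (log2 change 1.19, adjusted p = 8.24e-05), and TRIB3, a pseudokinase downstream of ATF4, had 1874 and 1870 with vehicle and 985 and 717 at 10 µM (log2 change -1.16, adjusted p = 8.74e-05). Metallothionein and oxidative stress genes were higher for 9 of 27 and lower for 1 (33.3% and 3.70%). SRXN1, sulfiredoxin, had 921 and 810 with vehicle and 2261 and 2292 at 10 µM (log2 change 1.40, adjusted p = 6e-05), and KEAP1, the repressor of the antioxidant factor NRF2, had 2038 and 1851 with vehicle and 1086 and 1036 at 10 µM (log2 change -0.87, adjusted p = 0.000311). Hypoxia and glycolysis genes were lower for 7 of 34 and higher for 4, which turned to 1 lower and 12 higher after median centring, and 1, 2 and 4 were lower without the vehicle replicate 1, 10 µM replicate 1 or 10 µM replicate 2 array (2 higher without vehicle replicate 2 or 10 µM replicate 1). HK1, hexokinase, had 2486 and 1914 with vehicle and 5272 and 5455 at 10 µM (log2 change 1.30, adjusted p = 0.00171), and EGLN3, an oxygen-sensing hydroxylase, had 1271 and 1190 with vehicle and 452 and 549 at 10 µM (log2 change -1.30, adjusted p = 0.00156). Oxidative phosphorylation genes were higher for 10 of 52 and lower for 5, 5 and 7 after quantile normalization, and higher for 4 without the vehicle replicate 2 or 10 µM replicate 1 array and for 6 without 10 µM replicate 2; NDUFB10 of complex I had 3735 and 3675 with vehicle and 1997 and 1803 at 10 µM (log2 change -0.97, adjusted p = 2.73e-05).

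Chromatin regulators of the Polycomb, DNA methylation and acetylation classes were lower for 16 of 47 and higher for 3 (34% and 6.38%), 9 and 7 after median centring, and 9 or 10 were lower without the vehicle replicate 2 or the 10 µM replicate 2 array (1 higher without vehicle replicate 2 or either 10 µM array). PHF19, which guides Polycomb repressive complex 2 to chromatin, had 942 and 882 with vehicle, 355 and 309 at 0.5 µM and 303 and 235 at 10 µM, and fell by 1.77 on the log2 scale (SE 0.17, adjusted p = 1.63e-05). PCGF2, of Polycomb complex 1, had 2574 and 2492 with vehicle and 982 and 1058 at 10 µM (log2 change -1.31, adjusted p = 0.000265). DNMT3A, a DNA methyltransferase, had 870 and 994 with vehicle and 370 and 433 at 10 µM (log2 change -1.22, adjusted p = 0.000124), and TET2, which oxidises methylcytosine, had 1017 and 1049 with vehicle and 535 and 506 at 10 µM (log2 change -0.99, adjusted p = 0.0101). Only 1 of 3 detected probe sets of DNMT3A passed. Both acetyltransferases EP300 (-0.63, adjusted p = 0.0456) and CREBBP (-0.71, adjusted p = 0.00544) fell, EP300 not after median centring. EZH2, the methyltransferase of Polycomb complex 2, had 2594 and 2839 with vehicle and 1985 and 1906 at 10 µM (log2 change -0.48, adjusted p = 0.0216), lost after median centring, and HDAC3, a deacetylase, had 1726 and 1737 with vehicle and 2596 and 3165 at 10 µM (log2 change 0.73, adjusted p = 0.00155).

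Keratin, junction and epithelial genes were lower for 11 of 34 and higher for 4 (32.4% and 11.8%), but 5 and 5 after median centring, and the lower count was 3, 7, 6 and 7 without the vehicle replicate 1, vehicle replicate 2, 10 µM replicate 1 and 10 µM replicate 2 array, with 2 higher without 10 µM replicate 1. MUC1, a membrane mucin, had 1254 and 1209 with vehicle, 698 and 667 at 0.5 µM and 303 and 251 at 10 µM, and fell by 2.16 on the log2 scale (SE 0.66, adjusted p = 0.0478). EHF, an epithelial ETS factor, went from 132 and 178 to 43.3 and 9.51, at least 1.53-fold lower (adjusted p = 0.00172). CLDN1, a tight junction protein, went from 45.6 and 75 to 160 and 131, at least 1.45-fold higher (adjusted p = 0.00167). Receptor tyrosine kinase and growth factor genes were higher for 6 of 30 and lower for 6 (20% and 20%, near the 16.9% and 16.8% of all detected genes), 8 and 4 after median centring. HBEGF, an EGF receptor ligand, had 138 and 140 with vehicle and 394 and 365 at 10 µM (log2 change 1.45, adjusted p = 0.000859), FGFR3, a fibroblast growth factor receptor, had 593 and 563 with vehicle and 1522 and 1359 at 10 µM (log2 change 1.32, adjusted p = 0.0821), and IGFBP5, which binds insulin-like growth factors, had 1537 and 1478 with vehicle and 361 and 489 at 10 µM (log2 change -1.84, adjusted p = 0.0156). Without the 10 µM replicate 1 array 2 genes of that list were lower, and without vehicle replicate 1 it was 3.

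Among AP-1 and immediate early genes 7 of 28 were higher and 3 lower (25% and 10.7%), against 16.9% and 16.8% of all detected genes. For the lists that follow, the shares were 11.5% and 11.5% (Notch), 27.6% and 6.9% (Wnt), 27.3% and 9.09% (androgen-regulated) and 7.69% and 7.69% (ERG targets). JUN, the AP-1 subunit, had 2380 and 2649 with vehicle, 4429 and 4483 at 0.5 µM and 7253 and 6215 at 10 µM, and rose by 1.42 on the log2 scale (SE 0.14, adjusted p = 2.82e-05). FOS, its partner, had 2926 and 2346 with vehicle and 2163 and 2024 at 10 µM (log2 change -0.32, adjusted p = 0.732). In the Notch pathway 3 of 26 were higher and 3 lower, 6 and 2 after median centring, with JAG1, a ligand, at 542 and 716 with vehicle and 1489 and 1498 at 10 µM (log2 change 1.26, adjusted p = 0.000124), and MAML3, a coactivator, at 1086 and 1079 with vehicle and 329 and 420 at 10 µM (log2 change -1.54, adjusted p = 0.0023). In the Wnt pathway 8 of 29 were higher and 2 lower (5 higher without 10 µM replicate 2), with LGR4, an R-spondin receptor, going from 60.2 and 72.9 to 162 and 205 (at least 1.82-fold, adjusted p = 6.68e-05). Of the androgen-regulated and luminal genes 11 of 27 measured were detected, with 3 higher and 1 lower. FKBP5, an immunophilin that binds steroid receptor complexes, had 1650 and 1604 with vehicle and 2784 and 2654 at 10 µM (log2 change 0.74, adjusted p = 0.00103). ERG, the ETS factor joined to TMPRSS2 in this line, had 143 and 134 with vehicle and 65.5 and 122 at 10 µM (log2 change -0.63, adjusted p = 0.612), and of 13 detected genes known as ERG targets 1 was higher and 1 lower, with 0 higher where any 1 array was left out.

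**Figure D4:**
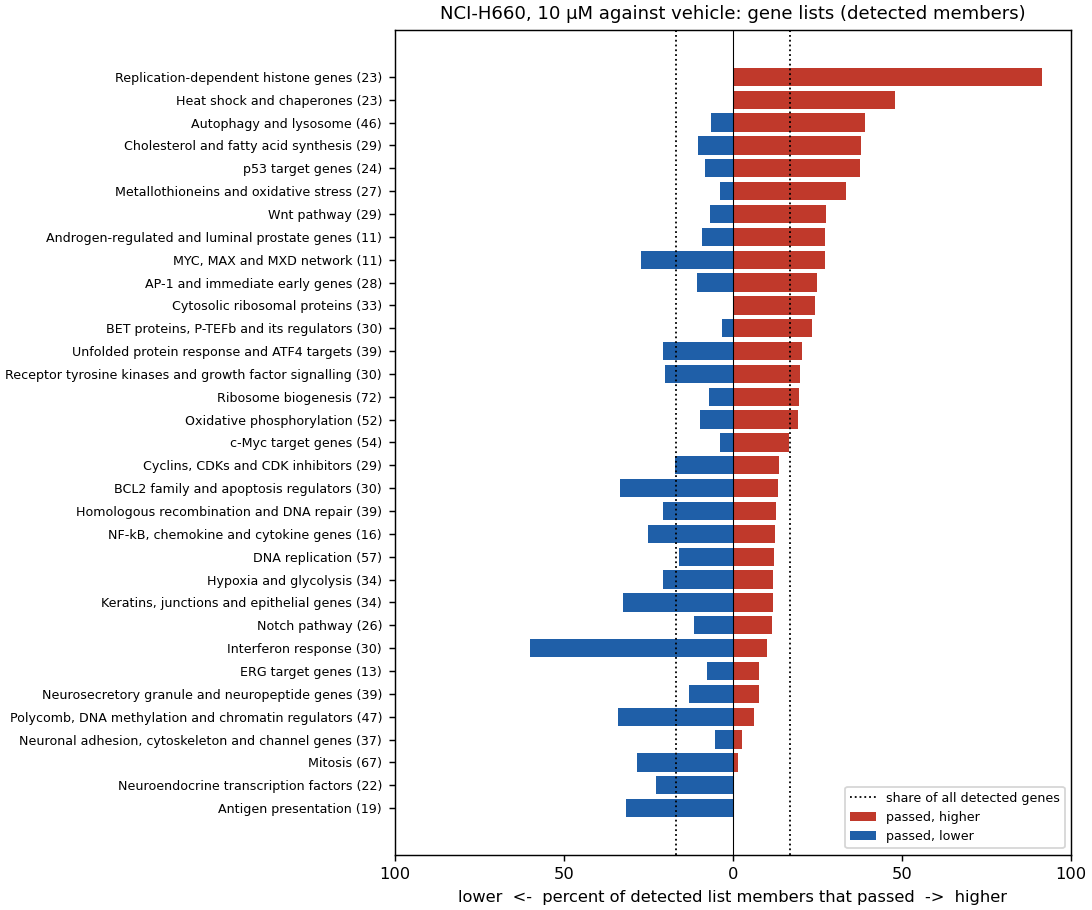
Percent of the detected members of each gene list that passed as higher (red, to the right) or lower (blue, to the left) at 10 µM against vehicle in NCI-H660, at an adjusted p under 0.1 with no fold minimum; the number detected is in brackets. Dotted lines mark the shares among all 12234 detected genes, 16.9% higher and 16.8% lower, and histone genes (91.3% higher) and interferon response genes (60% lower) lie farthest beyond them; lists with fewer than 11 detected genes are not drawn.

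To ask which changes went beyond the lower dose, 10 µM was set directly against 0.5 µM. By limma 274 probe sets differed (0.502% of those tested), 60 higher and 214 lower, and 179 without the 0.5 µM replicate 1 array. Median centring gave 94 and 109 and quantile normalization 93 and 156, and with the 6 NCI-H660 arrays fitted alone the count was 0, with 7687 at an unadjusted p under 0.05. Of the 395 genes called higher at 10 µM, 394 had a 0.5 µM mean between those of vehicle and 10 µM, and so had 709 of the 727 called lower. Those genes were chosen by the outer groups, so the counts describe the order only. GTF3C6 was 741 and 636 at 0.5 µM and differed from 10 µM by -1.42 (adjusted p = 0.000322). ZMYND8 was 1127 and 1228 at 0.5 µM and differed by -1.77 (adjusted p = 7.54e-05). PAG1, at 828 and 1033, differed by 1.45 (adjusted p = 0.000351). MYC was 887 and 840 at 0.5 µM, close to vehicle, and differed by 0.58 (adjusted p = 0.0101). Other genes had most of their change at the lower dose. ADARB1, at 701 and 641, had a difference to 10 µM of 0.37 (adjusted p = 0.219), and PHF19, at 355 and 309, one of -0.31 (adjusted p = 0.458), neither of which passed. Without a fold minimum 3.16% of detected genes were higher and 4.16% lower at 10 than at 0.5 µM. Of the 23 detected histone genes, 10 were also higher at 10 than at 0.5 µM.

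PC3, a line from a bone metastasis of prostate cancer, gave a comparison on arrays that NCI-H660 does not share. The change at 10 µM differed between the lines for 1418 probe sets by limma's test of the difference (2.6% of those tested), 513 more positive and 905 more negative in NCI-H660, 706 and 511 after median centring and 699 and 791 after quantile normalization. MYC differed by 1.73 (adjusted p = 7.34e-05), with a log2 change of 0.73 here (mean signal 777 to 1289) and -1.0 in PC3 (7748 to 3888). MYCL lay the other way, with -0.42 here and 0.70 in PC3, a difference of -1.12 (adjusted p = 0.00363). TMEM158 differed by 3.78 (adjusted p = 2.67e-06), with 3.20 here (mean signal 100 to 922) and -0.57 in PC3 (5307 to 3570). JUN differed by 1.52 (adjusted p = 0.00168), with 1.42 here and -0.10 in PC3. ZMYND8 differed by -1.90 (adjusted p = 0.000176), with -2.84 here and -0.94 in PC3. Without a fold minimum the difference passed as more positive here for 4.92% of detected genes and as more negative for 6.4%, and for 4.92% and 2.67% after median centring. Of c-Myc target genes 9 of 54 were higher and 2 lower here, and 1 and 20 of 56 in PC3, where 16.1% of detected genes were higher and 14% lower. The difference itself passed as more positive for 18 of 56 members and as more negative for 0, as it did after median centring and after quantile normalization. For ribosome biogenesis the difference passed as more positive for 21 of 72 and as more negative for 0, and for cholesterol and fatty acid synthesis for 12 and 1 of 29, with 20 and 0 and 11 and 1 after median centring.

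Histone genes rose in both lines, 21 of 23 here and 27 of 28 in PC3, and the difference passed for 5 of 29, all less positive here. H2AC8 was one, at 2.34 here and 3.68 in PC3 with a difference of -1.35 (adjusted p = 0.000642). Of interferon response genes 18 of 30 were lower and 3 higher here, and 14 of 40 lower and 2 higher in PC3, with 3 differences more positive and 2 more negative here. Of the genes called at a fold over 2, 106 rose in both lines and 139 fell in both. The 106 were 26.8% of the 395 of NCI-H660 and 24.1% of the 440 of PC3. The 139 were 19.1% of the 727 of NCI-H660 and 34% of the 409 of PC3. Those 440 and 409 calls came from 12093 genes detected in PC3. The PC3 shares of 16.1% and 14% given above had no fold minimum, so they are no background for this overlap. CLDN1 and LIPG were called higher here and lower in PC3, and BFSP1 and SLC60A1 lower here and higher in PC3; these were chosen after their values were seen. LIPG, endothelial lipase, had 457 and 436 with vehicle and 943 and 941 at 10 µM (log2 change 1.08, adjusted p = 0.00669), and in PC3 328 and 348 with vehicle against 124 and 106 (log2 change -1.56). BFSP1, a beaded filament protein, had 279 and 346 with vehicle and 108 and 111 at 10 µM (log2 change -1.5, adjusted p = 0.0101), and 1.40 in PC3.

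**Figure D5:**
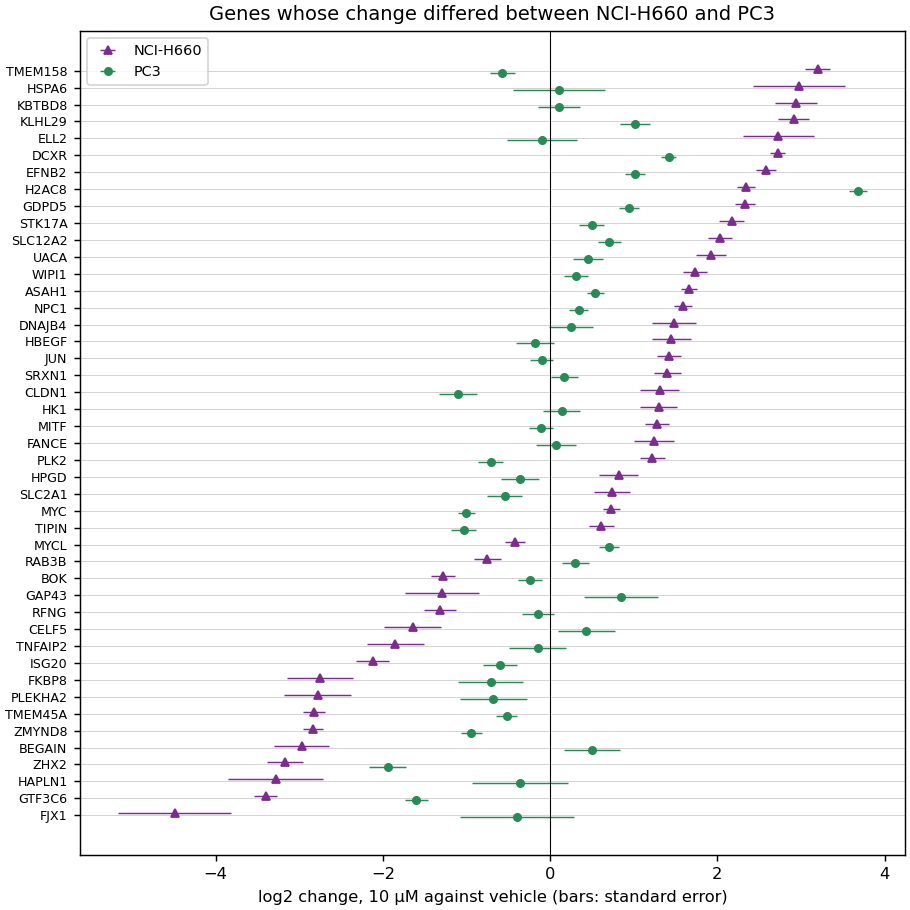
Log2 change at 10 µM against vehicle (horizontal axis) in NCI-H660 (purple triangles) and PC3 (green circles) with standard errors as bars, for the 45 named genes whose change differed between the lines by limma's test at a fold over 2. The change was more positive in NCI-H660 for 27 and more negative for 18; TMEM158, CLDN1, PLK2 and MYC are among those that rose in NCI-H660 and fell in PC3. A group mean lay under 100 for 7 and 6 of them, whose plotted size is not dependable.

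VCaP cells are known for a fusion of ERG and LNCaP cells for a rearranged ETV1, but the mean vehicle signal of ERG was 6984 under the label LNCAP and 18.1 under VCAP, and that of ETV1 was 43 and 375. Both lines were therefore used only in a mean that does not depend on which is which. Against the mean change of the other 3 lines 2828 probe sets differed (5.18%), 1037 more positive and 1791 more negative, 1983 and 907 after median centring and 1373 and 1216 after quantile normalization. MYC differed by 2.59 (adjusted p = 2.96e-07). DCXR differed by 1.90 (adjusted p = 2.15e-06). Its mean vehicle signal was 2534 here and 2844 in PC3, but 13854 and 13950 under the labels LNCAP and VCAP. The part of these unlike starting levels in the difference was not tested. GTF3C6 differed by -1.56 (adjusted p = 6.69e-05), and TMEM45A by -2.55 (adjusted p = 2.15e-06). The difference of HEXIM1, which did not pass, was -0.05 (adjusted p = 0.883). That of FOXM1, which also did not pass, was -0.02 (adjusted p = 0.979). Against PC3 alone HEXIM1 differed by 0.90 by limma (adjusted p = 0.01), with 1.86 here and 0.95 in PC3. The mean over lines therefore does not show that HEXIM1 changed alike in each.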

How the data were processed

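Per the labels, poly(A) RNA of each culture was hybridised by the authors to Affymetrix U133 Plus 2.0 arrays with 1 colour. The deposited values are MAS5 signal intensities on a linear scale, scaled by the authors to a target of 500, and they were used as deposited, without further normalization in the principal analysis. Of 54675 probe sets 62 controls were left out; 41091 had 1 gene symbol, 1801 several and 11721 none. Log2 signals of all 24 arrays were fitted in 1 model of 12 groups with limma 3.58.1 (R 4.3.3, lmFit and eBayes), adjusted by Benjamini-Hochberg over 54613 probe sets. A call needed an adjusted p under 0.1, a fold over 2 and a mean of 100 in either group; gene list counts and the words rose and fell had no fold minimum. A gene was read from its probe set with the highest mean. MAS5 subtracts local mismatch signal, so values near background are noisy and log2 changes there are imprecise.

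Named genes were the 12 largest rises and falls measured in both groups, the 8 largest each against the floor of 100, up to 4 genes that passed from each of 36 lists, HEXIM1, the MYC and BET genes, ERG and the neuroendocrine markers; members outside this rule (such as FOS, HSF1, CDK1, BCL2, SREBF2, CASP9, IRF7, HDAC3 and most single histone genes) were picked with their values in view. The members and lists were chosen with earlier results of these data known. Alternatives were other floors, scalings, probe sets, transforms, a variance trend, NCI-H660 alone, a replicate block and 1 array left out at a time. The script was tested on simulated data.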

Additional observations from a re-analysis of the deposited data

Results flagged for a closer look

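For 45 of 174 named genes the log2 change at 10 µM differed between NCI-H660 and PC3 by more than a factor of 2 in limma's test of the difference (adjusted p under 0.1), and these are set apart for that reason. The values in brackets are differences of log2 changes, NCI-H660 minus PC3. Among genes with a mean of 100 or more in all 4 groups the change was more positive in NCI-H660 for 20. These were TMEM158 (3.78), HSPA6 (2.87), MYC (1.73), STK17A (1.67) and TIPIN (1.64), of which TMEM158, MYC and TIPIN passed as lower in PC3, and HBEGF (1.63), EFNB2 (1.56), JUN (1.52), WIPI1 (1.42), GDPD5 (1.39), MITF (1.38), DCXR (1.30), SLC2A1 (1.28), NPC1 (1.24), DNAJB4 (1.23), SRXN1 (1.23), HPGD (1.18), FANCE (1.17), HK1 (1.16) and ASAH1 (1.12). The change was more negative for 12 such genes, namely TMEM45A (-2.31), PLEKHA2 (-2.10), CELF5 (-2.07), ZMYND8 (-1.90), GTF3C6 (-1.79), TNFAIP2 (-1.69), ISG20 (-1.52), H2AC8 (-1.35), RFNG (-1.18), MYCL (-1.12), RAB3B (-1.05) and BOK (-1.04). H2AC8 rose in both lines, and its negative value is a smaller rise in NCI-H660. WIPI1, MITF, NPC1 and ASAH1 belong to the autophagy and lysosome list, which as a whole did not differ in 1 direction. Its difference passed as more positive in NCI-H660 for 5 of 47 detected members and as more negative for 6. In PC3 itself 21 of 45 members were higher and 3 lower.

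For the other genes at least 1 group mean lay under 100, so their fitted differences depend on signals near background, are no sizes and have no order. On the positive side these were 7, CLDN1 (2.41), ELL2 (2.83), KBTBD8 (2.83), KLHL29 (1.91), PLK2 (1.94), SLC12A2 (1.32) and UACA (1.47), and on the negative side 6, BEGAIN (-3.48), FJX1 (-4.09), FKBP8 (-2.04), GAP43 (-2.14), HAPLN1 (-2.92) and ZHX2 (-1.23). The adjusted p-values of the 45 differences ranged from 2.67e-06 for TMEM158 to 0.0884 for DNAJB4. Groups of 2 arrays are too small for a search for single outlying arrays.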

How the results depend on the processing

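None of the 162 named genes that passed changed sign under the alternatives run on them. After median centring the split of calls against vehicle turned from 803 higher and 1556 lower to 1338 and 1102, that of the difference to PC3 from 513 and 905 to 706 and 511, and that to the mean of 3 lines from 1037 and 1791 to 1983 and 907. List splits turned for hypoxia (4 higher and 7 lower to 12 and 1) and DNA replication (7 and 9 to 10 and 1), and for oxidative phosphorylation under quantile normalization (10 and 5 to 5 and 7). Without a detection floor, 3657 probe sets differed from vehicle (1218 higher, 2439 lower) and 601 between 10 and 0.5 µM. With the NCI-H660 arrays fitted alone the count was 0 for 10 against 0.5 µM (lowest adjusted p 0.184) and 2756 against vehicle, and a fold minimum of 2 left 112 of the 363 list genes that passed. Leaving out 1 array at a time gave 2009 to 2125 calls against vehicle (711 to 771 higher, 1238 to 1385 lower), 179 to 274 against 0.5 µM, 1091 to 1433 against PC3, 2292 to 2605 against the mean of 3 lines, 251 to 264 list genes and 137 to 142 of 162 named genes; the 179 was without the 0.5 µM replicate 1 array. The replicate numbers did not pair the arrays (correlations of deviations -0.02, 0.04 and 0), and a replicate block gave 2316 calls against vehicle, 220 against 0.5 µM, 1264 against PC3, 2739 against the 3 lines, 328 list genes and 156 named genes. Of the 162 named genes that passed, 11 no longer passed after median centring, 3 after quantile normalization and 18 with NCI-H660 fitted alone. The transform log2(signal + 32), tried on lists and named genes after seeing the data, gave 440 list genes and 164 named genes. With 2 arrays a group and signals near 100 at the edge of detection, a gene that did not pass is not shown to be unchanged.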
